A study of Homo sapiens with 6 samples.

Results

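The 10 genes described here, SOX9, SNAI2, TWIST1, ZEB1, ZEB2, PRRX1, TFAP2B, NR2F1, NR2F2 and MSX2, encode transcription factors of the neural crest and of mesenchymal cells. They were taken by gene name from the 32575 genes listed in the deposited expression tables, and all 10 had an entry. The tables come from SH-SY5Y cells, an established human neuroblastoma line that grows mostly as neuroblast-like cells. Messenger RNA was sequenced in 3 groups of 2 libraries each. CSB knockdown cells carried a lentiviral short hairpin RNA against CSB, the product of ERCC6 and a chromatin remodeller. CSA knockdown cells carried one against CSA, the product of ERCC8 and part of a ubiquitin ligase. Control cells carried a control hairpin and are called wild type in the labels' genotype field, which calls the depleted cells mutants. Every group was selected with puromycin and grown for 2 to 3 weeks, so the controls share the transduction and the selection. CSA and CSB act together in transcription-coupled repair, and the study asks how depletion of either one alters gene expression in this line. A single line was used, the sources used here do not give the number of hairpins per target, and nothing says that libraries of a group came from separate cultures. The p-values therefore measure the spread between these libraries, which may be technical. Each p-value borrows part of that spread from other genes of similar level.

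The neural crest is a population of embryonic cells that leaves the neural tube, migrates and gives rise to the sympathetic nervous system, among other tissues. Neuroblastoma arises from that sympathetic lineage. TFAP2, MSX and SOXE factors specify the crest, and SNAI, TWIST and ZEB factors drive its cells to detach and migrate, a change known as the epithelial to mesenchymal transition. Neuroblastoma lines can occupy a noradrenergic state, kept by factors such as HAND2 and GATA3, or a mesenchymal state, in which PRRX1, SNAI2 and AP-1 factors are typical. Several factors of the list, TWIST1 and TFAP2B among them, are also known in noradrenergic cells.

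Levels are given as scaled counts, which are reads per gene divided by 1 size factor per library, and changes as log2 fold changes of the scaled count plus 1, with their standard error (SE). Libraries held 19368272 to 26758162 gene-assigned reads, and mitochondrial transcripts took 5.73 to 6.51% of them. ERCC6, the target of the CSB hairpin, had 258 and 302 scaled counts in CSB knockdown cells, against 615 and 593 in control cells (log2 fold change -1.11 ± 0.08 SE). ERCC8, the target of the CSA hairpin, had 61.8 and 57.2 scaled counts in CSA knockdown cells, against 219 and 217 in control cells (-1.86 ± 0.13 SE). Both targets were lowered in the libraries labelled for them. All 15 neuroblast markers had reads, and HAND2 averaged 26893 scaled counts in CSB knockdown, 30105 in CSA knockdown and 25721 in control cells. The catecholamine enzyme TH, a defining marker, was near the bottom of the range, with group means of 10.2, 4.14 and 17.1 scaled counts in the same order.

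Promoters of 3 factors are shown because these genes carry the contrasting patterns described below: MSX2 went in opposite directions in the knockdowns, NR2F1 was higher in both, and ZEB1 changed little. The sequences are from RefSeq on build GRCh38.p14 and end at or before the start of the deposited gene model, all on the plus strand. MSX2 lies at chr5:174724332-174724532, NR2F1 at chr5:93582972-93583221 and ZEB1 at chr10:31318167-31318416. Capitals mark a homeodomain core (TAATTA) and CCAAT boxes, of which ATTGG is the reverse complement, in MSX2, a CCAAT box in NR2F1, and in ZEB1 the E-box that ZEB and SNAI factors bind (CAGGTG).
MSX2: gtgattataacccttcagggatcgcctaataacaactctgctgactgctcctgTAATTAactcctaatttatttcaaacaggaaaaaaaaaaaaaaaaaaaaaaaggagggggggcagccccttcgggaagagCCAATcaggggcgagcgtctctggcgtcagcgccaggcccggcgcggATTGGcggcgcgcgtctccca
NR2F1: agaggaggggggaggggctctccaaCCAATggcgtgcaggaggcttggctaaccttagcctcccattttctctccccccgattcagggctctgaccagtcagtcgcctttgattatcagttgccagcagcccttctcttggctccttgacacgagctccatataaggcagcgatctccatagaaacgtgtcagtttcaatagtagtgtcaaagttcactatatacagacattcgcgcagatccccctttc
ZEB1: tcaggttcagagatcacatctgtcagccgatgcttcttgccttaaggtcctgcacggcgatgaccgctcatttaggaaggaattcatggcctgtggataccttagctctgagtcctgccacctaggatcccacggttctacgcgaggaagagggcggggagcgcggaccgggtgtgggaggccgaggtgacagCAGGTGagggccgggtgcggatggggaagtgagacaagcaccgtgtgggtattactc

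The motifs were searched on both strands in 250 bases before the RefSeq start, and the capitals do not overlap one another. Of 34788 promoter windows of that length, 4.37% held TAATTA, 32.0% held CCAAT and 17.5% held CAGGTG. In MSX2 the TAATTA lay at position -197 from the RefSeq start, and in ZEB1 the CAGGTG lay at -57. NR2F1 had its CCAAT at -225. Searches for the TWIST1 E-box CATATG (2.61% of windows), the AP-2 site GCCNNNGGC (19.8%), the NR2F site AGGTCA (12.0%), the SOX core ACAAT (24.7%) and the SMAD palindrome GGCGCC (16.4%) found no such letters in the windows of MSX2, NR2F1 and ZEB1. These matches describe letters and are not shown to be bound. Of 9 members looked up, 7 had a promoter entry, and SOX9 and TWIST1 are given by name.

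MSX2, SNAI2 and SOX9 were lower in CSA knockdown and higher in CSB knockdown cells than in control cells. MSX2, on chromosome 5 at 174724533 to 174730893 (hg38, as for all gene positions here), encodes a homeodomain repressor that responds to BMP signalling in the crest and the skull. It had 938 and 879 scaled counts in CSB knockdown cells, 110.6 and 106.8 in CSA knockdown cells, and 515 and 547 in control cells. The 3 groups do not overlap, and the CSA libraries lie far below the rest. Against control, MSX2 rose by 0.77 ± 0.08 SE on the log2 scale in CSB knockdown cells (adjusted p 2.17e-05) and changed by -2.28 ± 0.08 SE in CSA knockdown cells (adjusted p 6.84e-09). By size, the CSA change ranked 57 among the 2958 genes called lower in that comparison. Directly compared, CSB knockdown cells had 8.29 times the level of CSA knockdown cells (log2 fold change 3.05 ± 0.08 SE, adjusted p 1.15e-10).

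SNAI2 (SLUG), on chromosome 8 at 48917690 to 48921740, is a zinc finger repressor of epithelial genes that marks the migrating crest. Its scaled counts were 1045 and 1010 in CSB knockdown, 183 and 136 in CSA knockdown, and 394 and 366 in control cells. Each CSB library exceeded every control library, and each CSA library lay below them. The log2 fold change was 1.43 ± 0.12 SE in CSB knockdown against control (adjusted p 3.54e-06) and -1.26 ± 0.12 SE in CSA knockdown against control (adjusted p 1.10e-05). The CSA call was lost without CSB knockdown replicate 2 or control replicate 1, and the CSB call without either CSB knockdown library (largest adjusted p 0.0596 and 0.0572), with the direction kept. CSB knockdown cells exceeded CSA knockdown cells by 2.69 ± 0.12 SE (adjusted p 6.78e-09), and that call was kept in all 18 alternatives.

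SOX9, on chromosome 17 at 72121020 to 72126420, is a SOXE factor of the early crest and the master regulator of cartilage. It had 1381 and 1351 scaled counts in CSB knockdown, 279 and 254 in CSA knockdown, and 607 and 577 in control cells. Replicates lay close together and the groups far apart. SOX9 rose 2.31-fold in CSB knockdown against control (log2 fold change 1.21 ± 0.07 SE, adjusted p 3.26e-07) and fell to 0.450 of the control level in CSA knockdown (-1.15 ± 0.07 SE, adjusted p 4.57e-07). The difference between the knockdowns was 2.36 ± 0.07 SE (adjusted p 3.99e-10). SOX9-AS1, a transcript of the opposite strand that covers the SOX9 gene model, had 137 reads in all 6 libraries, against 4623 for SOX9. It differed between the knockdowns, with 25.3 and 46.2 scaled counts in CSB and 14.1 and 10.5 in CSA knockdown cells (adjusted p 0.0113), a call lost in all 6 fits that left out 1 library. Since no source used here gives the strand setting of the counting, reads of a gene and of its antisense partner cannot be told apart. In bulk RNA, fewer cells that express these factors and less of their RNA per cell cannot be told apart either.

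**Figure D1:**
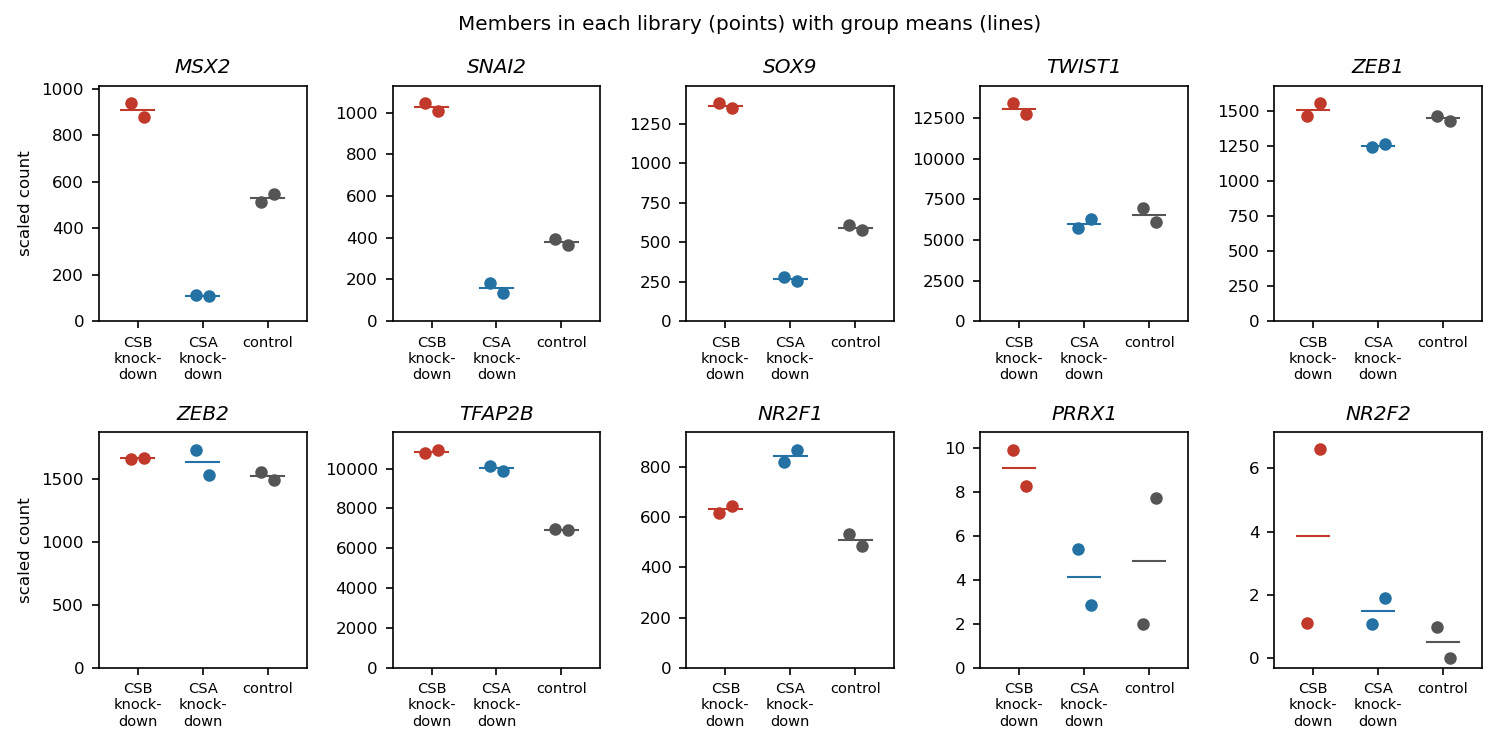
Scaled count (y axis, starting at 0 except for NR2F2, whose axis starts just below 0) of the 10 factors in each library, with points for the 2 libraries of CSB knockdown, CSA knockdown and control cells and a line at each group mean. MSX2, SNAI2 and SOX9 are highest in CSB knockdown and lowest in CSA knockdown, with MSX2 at 938 and 879, 110.6 and 106.8, and 515 and 547 scaled counts in CSB knockdown, CSA knockdown and control cells.

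TWIST1, on chromosome 7 at 19020991 to 19117672 on the minus strand, is a basic helix-loop-helix factor of the cranial crest and of mesoderm. It had 13410 and 12759 scaled counts in CSB knockdown, 5736 and 6286 in CSA knockdown, and 6991 and 6099 in control cells. The CSB libraries stood above all others, while the CSA and control libraries overlapped. TWIST1 was 2.00-fold higher in CSB knockdown than in control cells (log2 fold change 1.00 ± 0.07 SE, adjusted p 9.53e-07). In CSA knockdown against control the change of -0.12 ± 0.07 SE did not pass the test (adjusted p 0.273), and its 95% interval ran between -0.27 and 0.03. CSB knockdown exceeded CSA knockdown by 1.12 ± 0.07 SE (adjusted p 1.19e-07). An overlapping antisense gene, AC003986.6, had 513 reads against 52880 for TWIST1.

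The ZEB factors, zinc finger and homeodomain repressors of epithelial genes, changed little. ZEB1, on chromosome 10 at 31318495 to 31529814, had 1461 and 1551 scaled counts in CSB knockdown, 1239 and 1261 in CSA knockdown, and 1464 and 1424 in control cells. CSA knockdown libraries were the lowest, and those of CSB knockdown and control overlapped. The change in CSA knockdown was -0.21 ± 0.06 SE (adjusted p 0.0206), and each of the 6 fits that left out 1 library lost this call (largest adjusted p 0.185). The CSB change of 0.06 ± 0.06 SE did not pass the test (adjusted p 0.501) and lay between -0.03 and 0.00 under other scalings of the libraries. CSB knockdown exceeded CSA knockdown by 0.27 ± 0.06 SE (adjusted p 0.00272), a call lost with DESeq2 on the recovered reads (adjusted p 0.0647). ZEB1-AS1, divergent from ZEB1 and overlapping it, had 146.4 and 142.7 scaled counts in CSB knockdown, 146.3 and 167.8 in CSA knockdown, and 166.1 and 157.2 in control cells, with no call in any comparison.

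ZEB2, on chromosome 2 at 144384081 to 144524583 on the minus strand, had 1662 and 1665 scaled counts in CSB knockdown, 1731 and 1533 in CSA knockdown, and 1559 and 1491 in control cells. The CSA libraries spanned the other groups. None of the comparisons called it, with changes against control of 0.13 ± 0.06 SE in CSB knockdown (adjusted p 0.191) and 0.10 ± 0.06 SE in CSA knockdown (adjusted p 0.360). The 95% intervals were -0.01 to 0.26 and -0.04 to 0.23. ZEB2-AS1 had 12 reads in all libraries.

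TFAP2B and NR2F1 were higher in both knockdowns than in control cells. TFAP2B, on chromosome 6 at 50818723 to 50847613, is an AP-2 factor that acts in sympathetic neurons as well as in the crest, and it also belongs to the noradrenergic factors counted below. It had 10773 and 10941 scaled counts in CSB knockdown, 10146 and 9871 in CSA knockdown, and 6960 and 6921 in control cells. All 4 knockdown libraries lay well above the controls. TFAP2B rose by 0.65 ± 0.05 SE in CSB knockdown (adjusted p 1.39e-06) and by 0.53 ± 0.05 SE in CSA knockdown (adjusted p 7.24e-06). The knockdowns differed by 0.12 ± 0.05 SE, which did not pass the test (adjusted p 0.0800, 95% interval 0.02 to 0.22). Under other scalings of the libraries the difference was smaller, at 0.03 to 0.05, and over all 18 alternatives it ran between 0.03 and 0.14.

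NR2F1 (COUP-TFI), on chromosome 5 at 93583337 to 93594615, is an orphan nuclear receptor that acts with TFAP2 factors at crest enhancers. It had 619 and 644 scaled counts in CSB knockdown, 821 and 869 in CSA knockdown, and 535 and 486 in control cells. Here the CSA libraries were the highest and the groups did not overlap. NR2F1 rose by 0.73 ± 0.07 SE in CSA knockdown (adjusted p 1.79e-05), a call kept in all 18 alternatives. In CSB knockdown it was called at 0.31 ± 0.07 SE (adjusted p 0.00743). Under other scalings of the libraries this change was 0.22 to 0.25, and the difference of CSB from CSA knockdown -0.51 to -0.48. The CSB call was lost with DESeq2 and in the 5 fits that left out either CSB knockdown library, CSA knockdown replicate 2 or either control library (largest adjusted p 0.166). The difference of CSB from CSA knockdown was -0.42 ± 0.07 SE (adjusted p 0.000664), lost without either CSB knockdown library or CSA knockdown replicate 2 (largest adjusted p 0.0695).

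NR2F1-AS1, a long non-coding RNA read from the opposite strand at the same locus, shares 2312 bases with the NR2F1 gene model. It had 136.5 and 135.3 scaled counts in CSB knockdown, 234.1 and 248.0 in CSA knockdown, and 109.4 and 110.0 in control cells. The order of the groups was the same as for NR2F1. It rose by 1.13 ± 0.11 SE in CSA knockdown against control (adjusted p 1.77e-05) and was lower in CSB than in CSA knockdown (-0.82 ± 0.11 SE, adjusted p 0.000105). With 988 reads in all against 4053 for NR2F1, and no known strand setting, how the reads divide between the pair cannot be told.

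PRRX1 and NR2F2 were close to the limit of detection. PRRX1, on chromosome 1 at 170662728 to 170739419, is a homeodomain factor of limb and craniofacial mesenchyme and of mesenchymal neuroblastoma cells. It had 9 and 10 reads in the CSB knockdown libraries, 5 and 3 in the CSA knockdown libraries, and 2 and 8 in the control libraries. CSA and control overlapped, and both CSB libraries were at or above the highest of the rest. The ratio of CSB knockdown to control was 1.83, with an exact 95% interval of 0.81 to 4.41 that covers counting error only, and no comparison called PRRX1 (adjusted p 0.249 to 0.997). NR2F2 (COUP-TFII), on chromosome 15 at 96325938 to 96340263, is the nuclear receptor next of kin to NR2F1. It had 1 and 8 reads in the CSB knockdown libraries, 1 and 2 in the CSA knockdown libraries, and 1 and 0 in the control libraries. CSB knockdown replicate 2 alone held 8 of its 13 reads. On summed reads, the ratio of CSB knockdown to control was 8.67, with an interval of 1.20 to 379.9 that again covers counting error only. No comparison called NR2F2 (adjusted p 0.171 to 0.526). No fold is given for NR2F2 in CSA knockdown against control, since both groups lay at or under 3 reads.

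In CSB knockdown against control, 6 of the 10 factors rose (SNAI2, SOX9, TWIST1, MSX2, TFAP2B and NR2F1) and 0 fell. Of the 28388 genes tested, 23.6% were called in that comparison, 14.8% higher and 8.86% lower. The 10 factors had a median log2 fold change of 0.88, and all tested genes one of 0.10. In CSA knockdown against control, 2 of the 10 rose (NR2F1 and TFAP2B) and 4 fell (MSX2, SNAI2, SOX9 and ZEB1), where 18.8% of all tested genes were called, 8.37% higher and 10.4% lower. The median was -0.08, and that of all tested genes 0.00. Both comparisons use the same control libraries and are not independent. In CSB against CSA knockdown, 5 rose (MSX2, SNAI2, SOX9, TWIST1 and ZEB1) and 1 fell (NR2F1), where 29.4% of tested genes were called, 18.1% higher and 11.3% lower, and the medians were 0.86 and 0.09. The share called was larger among better expressed genes, to which all factors but PRRX1 and NR2F2 belong. Only 18321 genes averaged at least 10 scaled counts in a group. Of these, 7580 were called in CSB knockdown against control, 4771 of them higher. In CSA knockdown against control 6219 were called (2848 higher), and in CSB against CSA knockdown 8892 (5455 higher).

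Left out singly, libraries changed these counts. In CSA knockdown 2 to 3 factors fell instead of 4, with 2 without CSB knockdown replicate 2 and 2 without control replicate 1, while the 2 that rose stayed at 2. In CSB knockdown 4 to 6 rose. With TMM, upper quartile, total read or median ratio scaling, the counts of the 10 factors were the same in all 3 comparisons. The share of higher genes among all called genes was less stable: it was 62.5% in CSB knockdown against control as deposited and 47.7% with TMM, and 61.5% against 50.7% in CSB against CSA knockdown.

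**Figure D2:**
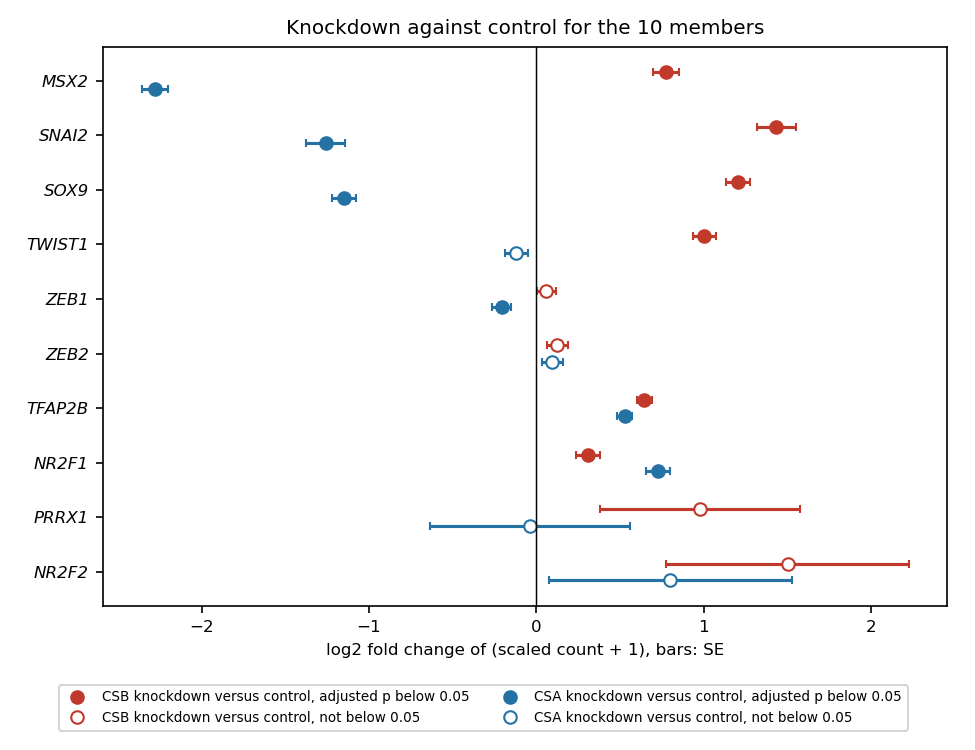
Log2 fold change against control (x axis, bars show the SE) of the 10 factors in CSB knockdown and in CSA knockdown cells, from 1 limma fit of all 6 libraries with shared controls, filled points where the adjusted p is below 0.05. MSX2, SNAI2 and SOX9 lie right of 0 for CSB knockdown and left of 0 for CSA knockdown, TFAP2B and NR2F1 lie right of 0 for both, and the wide bars of PRRX1 and NR2F2 come with at most 19 reads per group.

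Divided by the length of the gene model in kb, the factors spanned several orders of magnitude. TWIST1 was the highest in every group, at 6436 scaled counts per kb in CSB knockdown, 2957 in CSA knockdown and 3219 in control cells, above 99.3% of tested genes in each group. TFAP2B was next, with 1766, 1628 and 1129 scaled counts per kb in the same order. In control cells MSX2 (234 scaled counts per kb) came before ZEB1 (167), SNAI2 (166), SOX9 (150), NR2F1 (122) and ZEB2 (69.4). The control libraries of ZEB1 and SNAI2 overlapped, so these neighbours do not differ beyond their spread, and those of the other neighbours did not overlap.

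The order differed between groups. In CSB knockdown cells SNAI2 (450 scaled counts per kb), MSX2 (400) and SOX9 (347) followed TFAP2B, and ZEB1 (174), NR2F1 (150) and ZEB2 (75.7) came after them, with no overlap between neighbours. In CSA knockdown cells NR2F1 (201) and ZEB1 (144) followed TFAP2B, and MSX2 was the lowest of the 8 well-expressed factors at 47.9 scaled counts per kb. ZEB2 (74.3), SNAI2 (70.0) and SOX9 (67.6) overlapped there. MSX2 stood above 91.1% of tested genes in CSB knockdown, 60.8% in CSA knockdown and 84.7% in control cells. PRRX1 had at most 1.10 scaled counts per kb as a group mean, and NR2F2 at most 0.60, and their CSB knockdown libraries overlapped.

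**Figure D3:**
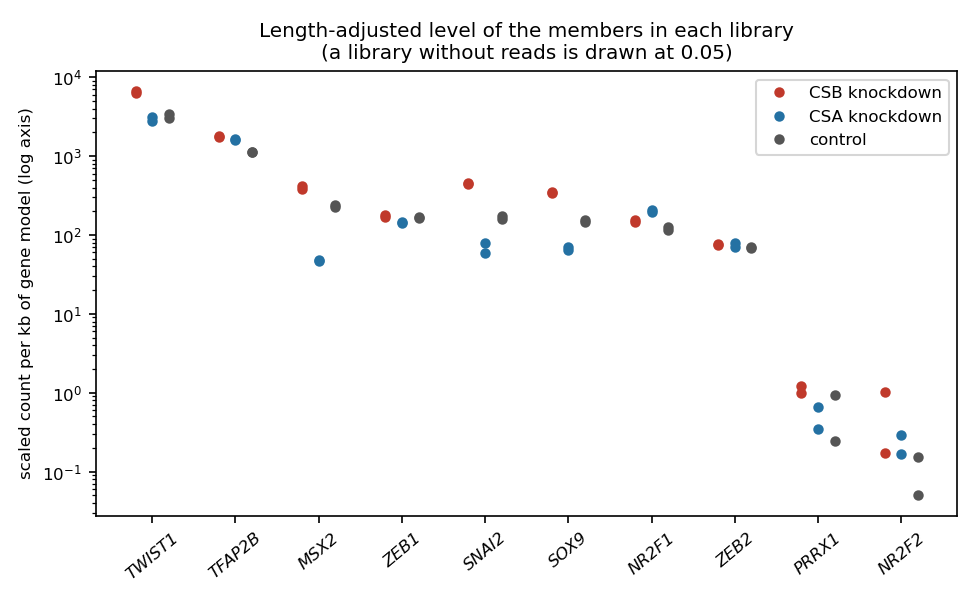
Scaled count per kb of gene model (log axis) of the 10 factors in each library of CSB knockdown, CSA knockdown and control cells, ordered by the control mean. TWIST1 and TFAP2B lie above 1000, MSX2, SNAI2 and SOX9 spread widely between groups, and PRRX1 and NR2F2 lie near or below 1; the NR2F2 point of the control library without reads is drawn at 0.05.

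Among the paralogs of the 10 factors, 9 of 12 had an entry and were tested. In CSB knockdown against control 4 rose and 0 fell, and in CSA knockdown 1 rose and 2 fell. Without 1 library, 2 to 4 rose in CSB knockdown and 0 to 1 in CSA knockdown. For this and the lists below, 14.8% of all tested genes rose and 8.86% fell in CSB knockdown against control. In CSA knockdown against control 8.37% rose and 10.4% fell, and in CSB against CSA knockdown 18.1% and 11.3%. PRRX2, the homeodomain paralog of PRRX1, had 593 and 520 scaled counts in CSB knockdown, 60.7 and 65.8 in CSA knockdown, and 154.2 and 150.5 in control cells. It rose by 1.86 ± 0.11 SE in CSB knockdown (adjusted p 3.80e-07) and changed by -1.26 ± 0.11 SE in CSA knockdown (adjusted p 8.64e-06). SNAI1 (SNAIL), the repressor most like SNAI2, had 848 and 826 scaled counts in CSB knockdown, 170 and 200.3 in CSA knockdown, and 368 and 370.4 in control cells. Its log2 fold changes were 1.18 ± 0.09 SE in CSB knockdown and -0.996 ± 0.088 SE in CSA knockdown, called in both. TWIST2 rose in CSB knockdown (0.80 ± 0.21 SE, adjusted p 0.0158), and TFAP2E rose in CSB (0.92) and in CSA knockdown (0.90), calls that 4 or 5 of the 6 fits without 1 library lost. In CSB against CSA knockdown, PRRX2, SNAI1, TWIST2 and NR2F6 rose, and 0 fell. NR2F6 changed by 0.22 ± 0.06 SE, a call lost in 4 of the 6 fits without 1 library, and 3 paralogs rose under each other scaling, with edgeR and with DESeq2.

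Of the other neural crest factors, 23 were tested, and in CSA knockdown 16 of them fell and 1 rose, with a median of -0.74. Left-out libraries gave 8 to 12 that fell. DLX5, a homeodomain factor of the branchial arches, had 54.2 and 48.6 scaled counts in CSA knockdown, against 198.9 and 152.4 in control cells (log2 fold change -1.74 ± 0.15 SE, adjusted p 5.15e-06). HES1, a repressor downstream of Notch, had 68.3 and 76.3 in CSA knockdown, against 219.8 and 193.9 in control cells (-1.50 ± 0.13 SE). SIX2 was lower too (-1.74 ± 0.21 SE, adjusted p 0.000110), with the call lost in 1 of the 6 fits without 1 library, and so was PAX7 (-1.80 ± 0.49 SE, adjusted p 0.0217), whose call each of the 6 fits without 1 library lost. SOX6, named after its values were seen, was the gene that rose, by 1.03 ± 0.14 SE.

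In CSB knockdown 11 of the 23 rose and 0 fell, with a median of 0.40, against 9 that rose under each other scaling and 7 to 9 without 1 library. ID1, an inhibitor of basic helix-loop-helix factors that BMP signalling induces, had 4611 and 4397 scaled counts in CSB knockdown, 781.5 and 723.8 in CSA knockdown, and 1709 and 1866 in control cells. It rose by 1.33 ± 0.06 SE in CSB knockdown (adjusted p 5.80e-08). ID4 rose by 1.21 ± 0.11 SE, and LMO4, a LIM-only cofactor that binds SNAI2 in the crest, by 1.03 ± 0.06 SE. ZIC2 was called with 13.2 and 15.7 scaled counts in CSB knockdown, against 0 and 0 in control cells (adjusted p 0.000717, lost in 4 of the 6 fits without 1 library). In CSB against CSA knockdown 18 rose and 1 fell, SOX6 being the gene that fell.

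Factors typical of mesenchymal-type neuroblastoma cells, other than the 10, numbered 24 tested. In CSA knockdown 12 fell and 0 rose (6 to 10 fell without 1 library), with a median of -0.54. FOSL1, an AP-1 subunit, had 13.01 and 18.12 scaled counts in CSA knockdown, against 58.7 and 44.4 in control cells (-1.67 ± 0.24 SE, adjusted p 0.000359, lost in 3 of the 6 fits without 1 library). FOXC1, a forkhead factor of crest-derived mesenchyme, had 485.6 and 586.5, against 1477 and 1363 in control cells (-1.41 ± 0.08 SE). YAP1, the effector of the Hippo pathway, had 192.9 and 181.2, against 396.9 and 401.3 in control cells (-1.09 ± 0.09 SE). EGR3 was lower by the test as well (-1.38 ± 0.37 SE, adjusted p 0.0201), which each fit without 1 library lost.

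In CSB knockdown 10 of these 24 rose and YAP1 fell (-0.41, named after its values were seen), with a median of 0.33. Under each other scaling 6 rose, and without 1 library 3 to 9 rose. FOXC1 had 2634 and 2518 scaled counts in CSB knockdown and rose by 0.86 ± 0.08 SE. FOSL1 rose by 1.26 ± 0.24 SE, to 115.6 and 132.8 scaled counts. Of the 6 fits without 1 library, 2 lost the call of FOXC1 and 4 that of FOSL1. FLI1, an ETS factor, was called with 16.5 and 15.7 scaled counts in CSB knockdown, against 5.97 and 4.82 in control cells (adjusted p 0.0420), and 5 of the 6 fits without 1 library lost this call. In CSB against CSA knockdown 15 rose and 1 fell.

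The partners and regulators of the 10 factors were mixed. Of 28 tested, 10 rose and 5 fell in CSB knockdown, against 9 that rose and 6 to 9 that fell under other scalings, and 1 rose and 7 fell in CSA knockdown. Without 1 library, 0 to 12 rose and 1 to 5 fell in CSB knockdown, and 0 to 1 rose and 1 to 3 fell in CSA knockdown. FBXO45, a ubiquitin ligase subunit that targets SNAI, TWIST and ZEB2 proteins, had 528.5 and 607.2 scaled counts in CSB knockdown, 1342 and 1259 in CSA knockdown, and 1314 and 1275 in control cells. It changed by -1.19 ± 0.07 SE in CSB knockdown (adjusted p 3.92e-07). CITED2, a coactivator for AP-2 factors, rose by 1.65 ± 0.20 SE in CSB knockdown (adjusted p 6.80e-05), lost in 2 of the 6 fits without 1 library. TCF3, a partner of TWIST1, rose by 0.49 ± 0.05 SE, lost in 1 such fit. LOXL2, which stabilizes SNAI1 protein, had 300.2 and 314.7 scaled counts in CSA knockdown, against 759.9 and 746.6 in control cells (-1.29 ± 0.07 SE, adjusted p 1.06e-07). TCF4, another TWIST1 partner, rose in CSA knockdown (0.34 ± 0.05 SE), lost in 2 such fits.

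Epithelial genes that ZEB and SNAI factors are known to repress made up a further list. Of 26 tested, 4 rose and 3 fell in CSB knockdown, and 1 rose and 2 fell in CSA knockdown. Without 1 library, 0 to 4 rose and 1 to 3 fell in CSB knockdown, and 0 to 1 rose and 1 to 2 fell in CSA knockdown. Of all tested genes, 14.8% rose and 8.86% fell in CSB knockdown, and 8.37% rose and 10.4% fell in CSA knockdown. The counts of this list were not far from those shares. KRT19, a keratin, had 28.6 and 25.6 scaled counts in CSB knockdown, against 89.5 and 87.8 in control cells (-1.68 ± 0.18 SE, adjusted p 3.78e-05). KRT18 had 27.1 and 21.9 in CSA knockdown, against 74.6 and 90.7 in control cells (-1.71 ± 0.19 SE), and CLDN4 rose there (0.67 ± 0.14 SE, lost in 4 of the 6 fits without 1 library). The CSB rises of CLDN3 and ESRP2 were lost in all 6 such fits.

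Matrix and mesenchymal genes that SOX9, TWIST1 or PRRX1 are known to activate were counted as possible readouts of these factors. Of 26 tested, 14 rose and 2 fell in CSB knockdown (6 to 14 rose without 1 library), and 1 rose and 14 fell in CSA knockdown (8 to 12 fell). Medians were 0.29 and -0.42, against 0.10 and 0.00 for all tested genes. Under other scalings 12 to 14 rose in CSB knockdown, with medians of 0.20 to 0.23. FN1 (fibronectin) had 10323 and 11322 scaled counts in CSB knockdown, 2485 and 2254 in CSA knockdown, and 9023 and 9012 in control cells, a change of -1.93 ± 0.06 SE in CSA knockdown (adjusted p 4.99e-09). VIM (vimentin) rose by 1.01 ± 0.05 SE in CSB knockdown, with 13718 and 13854 scaled counts there, against 6826 and 6859 in control cells. COL9A2, a cartilage collagen and SOX9 target, rose by 1.25 ± 0.13 SE in CSB knockdown, and COMP and SOX5 rose by 1.01 and 0.95. Of the 6 fits without 1 library, 2 lost the call of COL9A2, 4 that of COMP and 2 that of SOX5. TNC fell by 1.37 on the log2 scale and SPARC by 1.12 in CSA knockdown. COL6A3 had 46.2 and 38.8 scaled counts in CSB knockdown, 17.3 and 19.1 in CSA knockdown, and 84.5 and 71.4 in control cells, and so was called lower in both knockdowns, though 5 of the 6 fits without 1 library lost the CSB call. THY1 was the other gene that fell in CSB knockdown, and SOX6 the gene that rose in CSA knockdown. In CSB against CSA knockdown 21 rose and 2 fell (SOX6 and THY1, named after their values were seen).

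**Figure D4:**
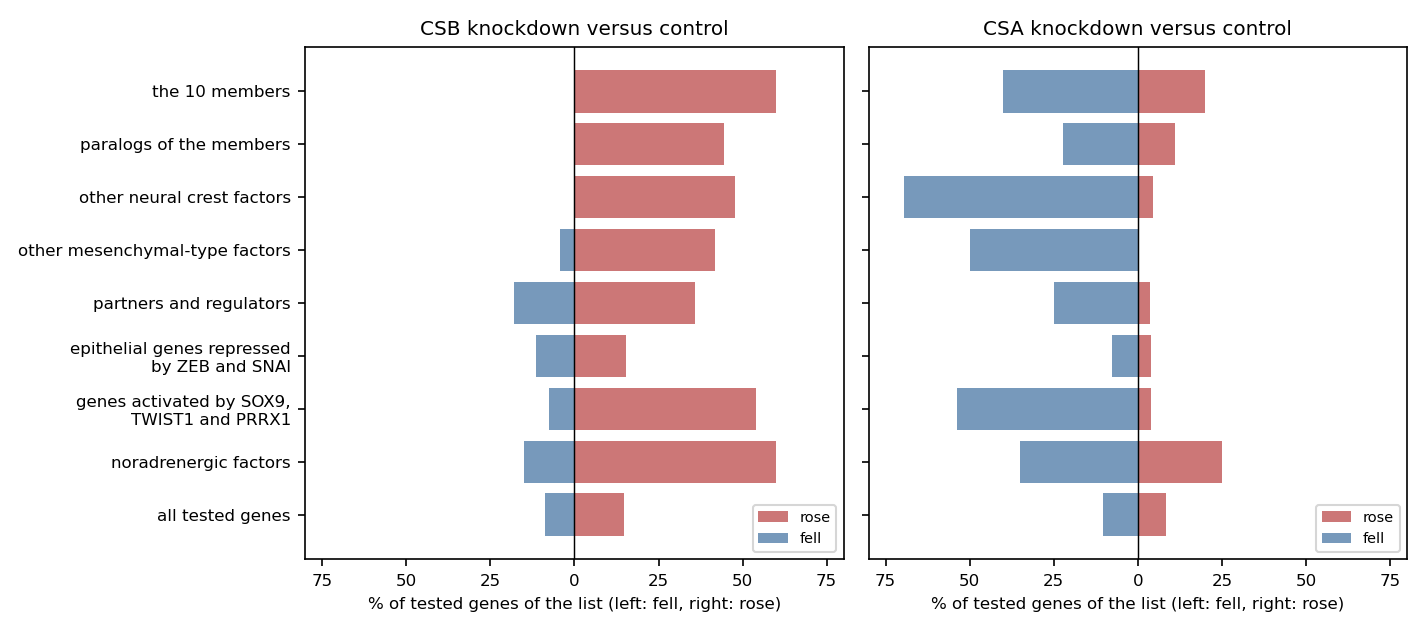
Share of tested genes that rose (right) or fell (left), in % of each list, in CSB knockdown and in CSA knockdown against the shared controls, for the 10 factors, 7 related lists and all 28388 tested genes. In CSA knockdown 16 of 23 other neural crest factors and 14 of 26 activated genes fell, where 10.4% of all tested genes did. All tested genes include many of low level, which were called less often. The CSB counts of mesenchymal-type and noradrenergic factors drop under other scalings.

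The noradrenergic factors, the counterpart of the mesenchymal state, held TFAP2B among 20 genes. In CSB knockdown 12 rose and 3 fell, with 8 to 9 that rose and 4 to 5 that fell under other scalings, and in CSA knockdown 5 rose and 7 fell. Without 1 library, 5 to 12 rose and 2 to 4 fell in CSB knockdown, and 2 to 5 rose and 2 to 6 fell in CSA knockdown. SATB1 rose by 0.81 ± 0.05 SE in CSB knockdown and changed by -0.65 ± 0.05 SE in CSA knockdown. MYCN rose by 1.12 ± 0.13 SE in CSB knockdown, lost in 2 of the 6 fits without 1 library. EYA1 rose by 0.94 ± 0.07 SE in CSA knockdown, and TBX2 fell by 0.63 on the log2 scale there.

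Markers of cell types changed as well. Of 15 neuroblast markers, 2 rose and 6 fell in CSB knockdown, and 8 rose and 2 fell in CSA knockdown, with summed levels of 99611 to 99693 scaled counts in CSB knockdown, 143384 to 148735 in CSA knockdown and 115538 to 119312 in control cells. Without 1 library, 0 to 2 of them rose and 4 to 6 fell in CSB knockdown, and 5 to 8 rose and 0 to 1 fell in CSA knockdown. Under other scalings 7 to 8 of them fell in CSB knockdown. CHGA (chromogranin A) had 3566 and 3681 scaled counts in CSB knockdown, 22906 and 25867 in CSA knockdown, and 15330 and 14469 in control cells. Of 14 fibroblast and pericyte markers with an entry, 5 rose and 4 fell in CSB knockdown, and 0 rose and 8 fell in CSA knockdown. Without 1 library, 3 to 5 rose and 2 to 5 fell in CSB knockdown, and 0 to 1 rose and 5 to 7 fell in CSA knockdown. Under each other scaling 5 fell in CSB knockdown. These markers summed to 106837 to 108943 scaled counts in CSB knockdown, 98070 to 107320 in CSA knockdown and 117006 to 117962 in control cells. RGS5 made up most of this sum. Without it the sum was 17958 to 18781 in CSB knockdown, 9820 to 10177 in CSA knockdown and 16180 to 16362 in control cells. CSB knockdown thus lay below control with RGS5 and above control without it. DCN (decorin) rose by 2.23 ± 0.12 SE in CSB knockdown, whereas TAGLN and ACTA2 were lower in both knockdowns, ACTA2 by -3.42 ± 0.16 SE in CSA knockdown. The CSB call of ACTA2 was lost in 4 of the 6 fits without 1 library. The part of these markers in the changes of the 10 factors was not tested.

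Markers of other cell types had low summed levels, and the Schwann and melanocyte sum was highest in CSB knockdown. Schwann and melanocyte markers summed to 447 to 457 scaled counts in CSB knockdown, 376 to 383 in CSA knockdown and 358 to 372 in control cells, and 3 of 15, SOX10, CDH19 and FABP7, had no entry in the tables used here. Of 12 tested, 1 rose and 0 fell in CSB knockdown, and 1 rose and 1 fell in CSA knockdown. Epithelial markers summed to 372 to 399 scaled counts over all libraries, with 0 that rose and 1 that fell in CSB knockdown and 1 that rose and 1 that fell in CSA knockdown. Blood and endothelial markers other than the globins summed to 44.4 to 77.6 scaled counts, with 1 that fell in CSB and 3 in CSA knockdown and 0 that rose. Without 1 library, 0 to 1 of the Schwann and melanocyte markers rose in either knockdown, and 0 to 2 of the blood and endothelial markers fell in either. The shares of all tested genes were 14.8% higher and 8.86% lower in CSB knockdown, and 8.37% higher and 10.4% lower in CSA knockdown. PTPRC was at 0 in all 4 knockdown libraries. None of the markers with an entry was at 0 in all 6 libraries.

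The genes nearest to each factor in pattern over the 6 libraries were sought among 13389 genes whose scaled counts averaged 50 or more, by the Euclidean distance between log2 values centred on each gene's mean. For MSX2 they were KIT, a receptor tyrosine kinase (distance 0.28), GPC3, a glypican (0.48), and EDNRA, an endothelin receptor of the crest (0.51). KIT averaged 337 scaled counts in CSB knockdown, 40.2 in CSA knockdown and 173 in control cells. For SNAI2 they were FGFR2 (0.27), ENG, a TGF-beta coreceptor (0.29), and BRINP1 (0.30), and ENG averaged 4744, 662 and 1817 scaled counts in the same order. For SOX9 they were RASL11B (0.13), ID1 (0.27) and DGAT2 (0.27), with RASL11B at 1490, 269.7 and 622. For TWIST1 they were SOX4 (0.11), UBALD2 (0.16) and LRRC56 (0.16), with SOX4 at 34950, 15746 and 18064 scaled counts. PRRX1 and NR2F2 had no close neighbour at their few reads. The nearest to PRRX1 were ZNF204P, CUBN and PTGER3 (0.90, 0.90 and 0.91), and those to NR2F2 were RP11-66B24.4, GRIN2C and MYH7B (1.25, 1.31 and 1.32). The libraries are shared by all genes, and the likeness is a description over 6 libraries with no test.

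**Figure D5:**
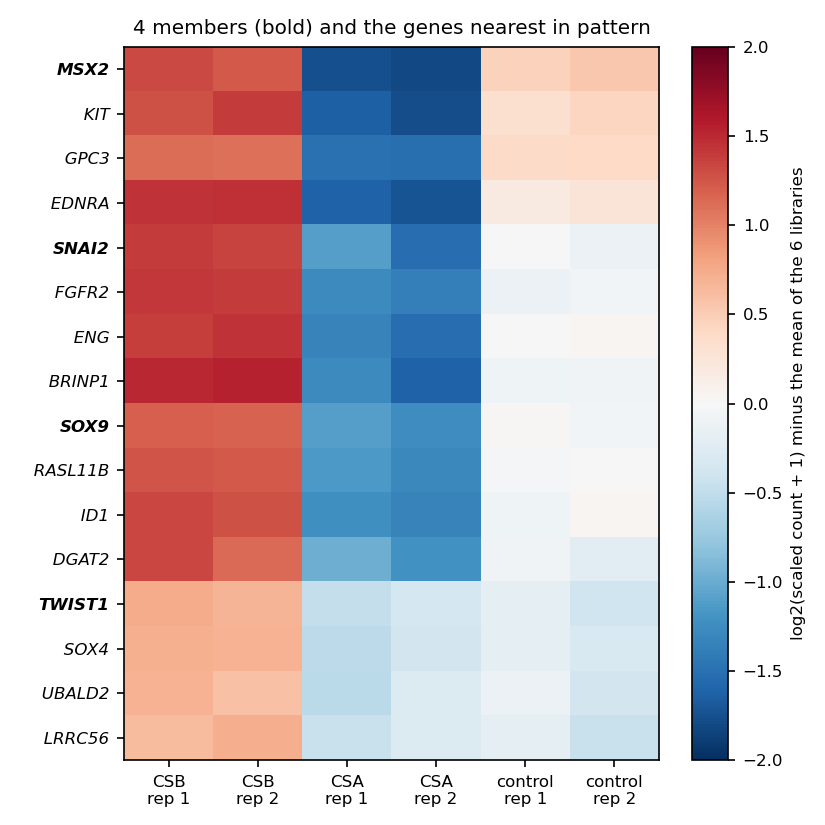
Log2(scaled count + 1) minus the mean of the 6 libraries (colour) for MSX2, SNAI2, SOX9 and TWIST1 (bold) and the 3 genes nearest to each, in the libraries of CSB knockdown, CSA knockdown and control cells. The first 3 blocks are high in CSB and low in CSA knockdown, with MSX2 and its neighbours above their mean in control cells, and the TWIST1 block is high in CSB knockdown alone.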

How the data were processed

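Gene-level values of 6 RNA-seq libraries were analysed. Total RNA (1 µg) went into Illumina TruSeq libraries, per the labels' protocols. FastQC, HISAT2 2.0.4 and hg38 are named per the submitters' processing notes; no source used here gives the counter, its strand setting or the annotation. Per the file headers the unit is FPKM, but the deposited values are a signal: reads per gene divided by 1 size factor per library, and 100% of them were whole multiples of 1 read (tolerance 0.01). Genes without a row were taken as 0. Gene lengths are those of the deposited tables.

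limma 3.58.1 (R 4.3.3), with a mean-variance trend, was fitted to log2(scaled count + 1) of all 6 libraries (3 residual degrees of freedom, no replicate block), for 28388 genes with a mean of at least 1 in a group. Benjamini-Hochberg adjustment ran over all of them, and rose, fell and called mean an adjusted p below 0.05. The SE and p-values are moderated: each draws on the spread of genes of similar level as well as on the gene's own. Adding 1 understates changes of low genes. edgeR 4.0.16 and DESeq2 1.42.0 on the recovered reads were alternatives. The script was tested on simulated data.

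The 10 members, the 13 further lists and the motifs were chosen with earlier results of these data known. Named were all members, the hairpin targets, up to 4 called genes per list and comparison with the largest change, antisense genes, and the 3 nearest genes of members whose group means span at least 1 on the log2 scale. Replicates within a group differed beyond sampling noise (chi-square per degree of freedom 1.95 to 5.06), so the fits kept all libraries apart. Only the exact intervals of PRRX1 and NR2F2 used summed reads of a group, and they leave that extra spread out. A few genes that the rule names are not reported here.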

Additional observations from a re-analysis of the deposited data

Results flagged for a closer look

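For 6 of the 10 factors the level in CSB knockdown cells differed from that in CSA knockdown cells. The knockdowns were compared directly in the limma fit of all 6 libraries, where 29.4% of tested genes were called. Among the 18321 genes averaging at least 10 scaled counts in a group, 8892 were called in that comparison. The differences in log2 fold change, CSB minus CSA, were 3.05 for MSX2, 2.69 for SNAI2, 2.36 for SOX9, 1.12 for TWIST1, 0.27 for ZEB1 and -0.42 for NR2F1. The first 4 of these calls were kept in all 18 alternatives, that of ZEB1 was lost with DESeq2, and that of NR2F1 without either CSB knockdown library or without CSA knockdown replicate 2.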

How the results depend on the processing

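In 18 alternatives per comparison (4 scalings, 2 pseudocounts, 2 filters, only the groups compared, edgeR, DESeq2, the replicate block and 6 left-out libraries) no called factor changed direction. The calls of MSX2, SOX9, TFAP2B against control, TWIST1 in CSB knockdown and NR2F1 in CSA knockdown were kept in all 18. The number of factors that fell ranged from 2 to 3 without 1 library in CSA knockdown against control, and from 0 to 1 in CSB against CSA knockdown. Called genes numbered 5334, 6706 and 8340 for CSA against control, CSB against control and CSB against CSA knockdown, and 1126 to 3306, 1773 to 5961 and 4384 to 6223 without 1 library, where the fit has fewer residual degrees of freedom and a group with 1 library is assumed to vary like the others. Replicate numbers did not pair the libraries (correlations of replicate differences -0.04 to -0.03), and with the replicate block the counts were 5259, 6575 and 8258, with 2 factors that rose and 4 that fell in CSA knockdown and 6 and 0 in CSB knockdown. With 2 libraries per group and few reads for PRRX1 and NR2F2, differences of those genes were not detectable at this depth.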

Other observations

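HBB, the beta globin, had 373 scaled counts in control replicate 2, against 0 in the other 5 libraries. HBA1 had 23.1 scaled counts in control replicate 2, against 0 to 1.10 in the others. Neither overlaps a member, and both were left out of the blood marker sum above.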
